A study of Oryctolagus cuniculus with 3 samples.

Results

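IL17B, SERPINI1, MAMDC2, TES and BCHE are 5 genes outside the contractile apparatus whose signal in the abdominal aorta of the model rabbit far exceeded that of the control rabbit and was still high in the recovery rabbit. They were chosen by exactly these values, their log2 ratios of model and recovery over control, so the ratios describe the genes and test nothing. Each gene was read from 1 of the 43603 gene probes on the array, as 5 of the 613 genes that could be tied to a probe. The arrays carried labelled RNA of 3 male New Zealand white rabbits, each 3 months old at purchase and 1 for each group, picked by the study from groups of 4 with the help of pathological sections and intravascular ultrasound. The control rabbit (day 0) ate normal chow ad libitum and its aorta was not injured. Its sample label also reads PBS, and the methods name no PBS treatment of the rabbits. The model rabbit (day 30) ate chow with 1% cholesterol and 6% peanut oil for 4 weeks, and its abdominal aorta was stripped with a balloon catheter 3 days into this diet. The recovery rabbit (day 60) received the same diet and injury and then 4 weeks of chow without added cholesterol or fat, which the methods describe as intake reduced by 20% and the sample labels as a normal diet. Control and model thus differ in diet and in injury at once, and by the days given also in time. The same holds for control and recovery. The study used an uninjured rather than a sham-operated control. The parts of diet, injury and time in any difference cannot be told apart. Model and recovery differ at once in diet, in time since injury and in age, and these cannot be told apart either.

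The proteins work in different places. IL17B is a secreted cytokine of the interleukin-17 family that binds the receptor IL17RB. SERPINI1, or neuroserpin, is a secreted serpin that inhibits tissue plasminogen activator and is best known from neurons. MAMDC2 is a secreted matrix proteoglycan with MAM domains, and TES (testin) is a LIM domain scaffold of focal adhesions and actin filaments. BCHE is butyrylcholinesterase, which hydrolyses acetylcholine and other choline esters and circulates in plasma. In the artery wall, smooth muscle cells carry the contractile filaments and focal adhesions, and after balloon injury they build the neointima together with newly laid matrix.

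The values are log2 signals that the authors quantile-normalized, so all 3 arrays have the same distribution and 26161 probes of each lay above the floor of 4.37. This floor is the 40th percentile of the gene probes, and lower values were set to it before any ratio was taken. A ratio with 1 floored side is a lower bound. Since every group is a single array, no error, p-value or test can be given, and each difference is between aortas of single animals rather than between conditions. In tissue RNA, fewer cells of a type and less RNA per cell cannot be told apart. Over 8 rows of spiked-in RNA with signal above the floor, the median log2 difference to the control array was -0.46 for model and 0.07 for recovery. Rescaling to these rows raises the log2 ratio of model over control by the size of that shift for each of the chosen genes. Where the model value is under the floor, the rise is smaller or absent. It also lowers the log2 ratio of recovery over model for each of the chosen genes.

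The log2 signal of IL17B was 4.55 (control), 9.99 (model) and 11.49 (recovery). Its control value exceeded the floor by only 0.17, and the signal was higher in model than in control and highest in recovery. The model value was 43.6-fold and the recovery value 123-fold that of control. Recovery also exceeded model, by 2.82-fold, which made IL17B the single one of the 5 genes at least 2-fold apart between these arrays. Of the 28950 probes that exceeded the floor on 1 array or more, 7.05% were at least 2-fold higher and 8.16% at least 2-fold lower in recovery than in model. On the scale of the spiked-in controls the log2 ratio of IL17B for recovery over model was 0.97, just under 2-fold.

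For SERPINI1 the log2 signals were 8.43 (control), 13.65 (model) and 13.63 (recovery). The control value lay 4.05 above the floor, so that both ratios are measured and neither is a bound. The model value was 37.2-fold and the recovery value 36.8-fold the control value, with model and recovery 0.02 apart on the log2 scale. Scaled to the spiked-in controls, SERPINI1 was lower in recovery than in model, at -0.54 on the log2 scale. TES, the focal adhesion protein, gave 9.84 (control), 14.71 (model) and 15.26 (recovery). Its control value was the furthest of the 5 above the floor, at 5.47. Its ratios were 29.2-fold in model and 42.7-fold in recovery, 0.55 higher in recovery than in model on the log2 scale. That difference between recovery and model was 0.02 after scaling to the spiked-in controls.

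MAMDC2, the matrix proteoglycan, gave 5.89 (control), 10.78 (model) and 10.42 (recovery) on the log2 scale. It was 29.6-fold higher in model and 23.1-fold higher in recovery than in control. MAMDC2 was the gene with the greatest difference downward between recovery and model, at -0.36 on the log2 scale. This difference became -0.89 after scaling to the spiked-in controls. BCHE gave 4.32 (control, under the floor), 13.09 (model) and 13.30 (recovery). Its ratio to control was thus at least 422-fold for model and at least 486-fold for recovery, the largest differences among the 5 genes. Recovery exceeded model by 0.21 on the log2 scale for BCHE, a sign that turned to -0.32 after scaling to the spiked-in controls.

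**Figure D1:**
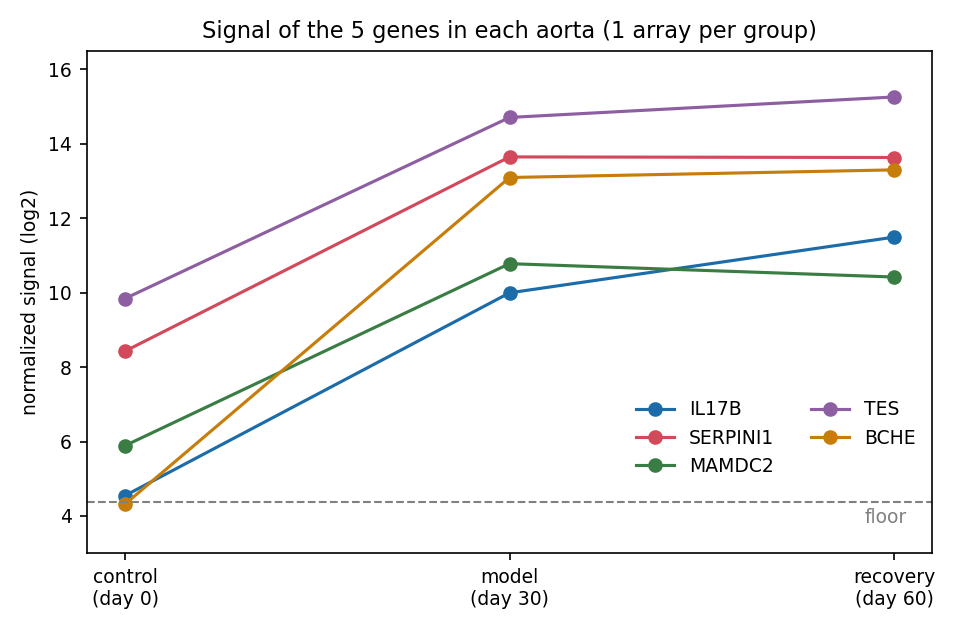
Normalized log2 signal (vertical axis) of the 5 genes in the control, model and recovery aorta (horizontal axis, by day), with 1 array for each point and the floor of 4.37 as a dashed line. All 5 lie higher in model and recovery than in control, IL17B goes on to 11.49 in recovery, and BCHE and IL17B start at the floor in control. Heights of different genes are not comparable, since each probe has its own brightness.

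For reference, 11.9% of the probes were at least 2-fold higher and 13.1% at least 2-fold lower in model than in control, and 16% were higher and 16% lower in recovery than in control. After scaling to the spiked-in controls, 7062 probes were higher and 2467 lower in model than in control, in place of 3451 and 3784, and 875 were higher and 5990 lower in recovery than in model, in place of 2040 and 2362. In both model and recovery, 8.06% of the probes were at least 2-fold and 0.466% at least 16-fold above control. All 5 genes belong to the 135 probes at least 16-fold above control in both, which follows from their choice for large ratios. Ranks are by the floored ratios, in which BCHE and every probe with a floored control value stand at their lower bound, so that such probes could rank higher. By the ratio of model over control BCHE ranked 4 among 28950 probes, IL17B 65, SERPINI1 81, MAMDC2 98 and TES 100. By the ratio of recovery over control BCHE ranked 2, IL17B 19, TES 90, SERPINI1 103 and MAMDC2 185. Set against its own difference in model on the log2 scale, the difference in recovery was 92.7% for MAMDC2, 99.7% for SERPINI1, 102% for BCHE, 111% for TES and 127% for IL17B. The median of that share was 90.5% over the 3451 probes at least 2-fold higher in model, and 109.6% over the 2334 probes at least 2-fold higher in both, as the 5 genes are. MAMDC2, SERPINI1 and BCHE were thus below the median of the second set.

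**Figure D2:**
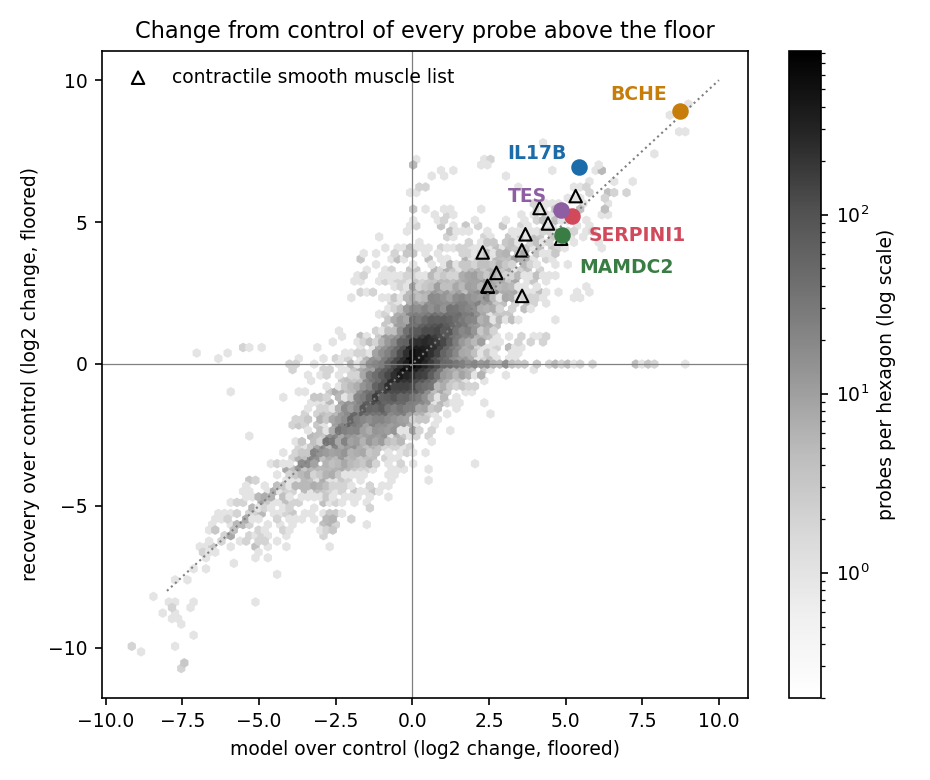
Log2 change of recovery over control (vertical axis) against that of model over control (horizontal axis), after flooring, for the 28950 probes that exceeded the floor on 1 array or more (grey hexagons, shaded by the number of probes on a log scale). Coloured points are the 5 genes, open triangles the 11 contractile genes with a probe, and the dotted line marks equal changes. BCHE lies at the upper right with only a few unnamed probes near it, IL17B lies above the line, and SERPINI1, TES and MAMDC2 lie among the highest triangles, of which that of LMOD1 and the point of BCHE are lower bounds.

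The gene behind each probe was found through the ratios the study lists by gene, since the value table names probes only. For BCHE the probe A_04_P004003 matched both listed log2 ratios within 0.0047, inside the tolerance of 0.006, and the next nearest probe was 0.188 away. The probes of IL17B (A_04_P100887), SERPINI1 (A_04_P064607), TES (A_04_P071577) and MAMDC2 (A_04_P101143) matched within 0.0045, 0.0026, 0.0043 and 0.00091. For MAMDC2 the next nearest probe lay just outside the tolerance, at 0.00989 (A_04_P036033, with 2.44 in control, under the floor, 7.33 in model and 6.96 in recovery).

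Probes with neighbouring numbers repeated the pattern for BCHE and MAMDC2. For IL17B, SERPINI1 and TES only lower-numbered neighbours were on the array, and their values differed from those of the gene's probe. Whether these neighbours read the same gene is not known. They therefore cannot show whether a further probe of the gene would repeat the pattern. Numbers up to 4 away were looked at, and not all of them are on the array. The probes numbered 1 and 2 below that of BCHE had log2 signals of 4.19 and 5.40 in control, 12.78 and 14.39 in model and 13.01 and 14.56 in recovery. The probe numbered 2 below was above the floor on every array, and its log2 ratios to control were 8.99 (model) and 9.16 (recovery). The probes numbered 1 below and 1 above that of MAMDC2 were at 5.55 and 4.95 in control, 10.29 and 9.92 in model and 9.96 and 9.55 in recovery. They lay 0.20 and 0.11 from MAMDC2 in distance over its 2 log2 ratios. The 4 probes numbered just below IL17B were level instead, at 6.68 to 6.90 in control, 6.59 to 6.79 in model and 7.31 to 7.50 in recovery, and the 4 just below SERPINI1 were under the floor on all arrays. The probe numbered 4 below TES gave 3.87 (control, under the floor), 6.77 (model) and 5.56 (recovery). Its log2 ratios to control were thus at least 2.39 (model) and 1.18 (recovery). Further from BCHE and MAMDC2, the probe numbered 3 above BCHE was level at 7.79, 8.05 and 7.24 in control, model and recovery, and those numbered 4 below BCHE and 4 above MAMDC2 were under the floor throughout. None of these neighbouring probes carries a gene name here. Of the 135 probes at least 16-fold above control in both groups, 113 had a probe with an adjacent number on the array, and for 98 of them (86.7%) an adjacent probe was among the 135 as well.

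**Figure D3:**
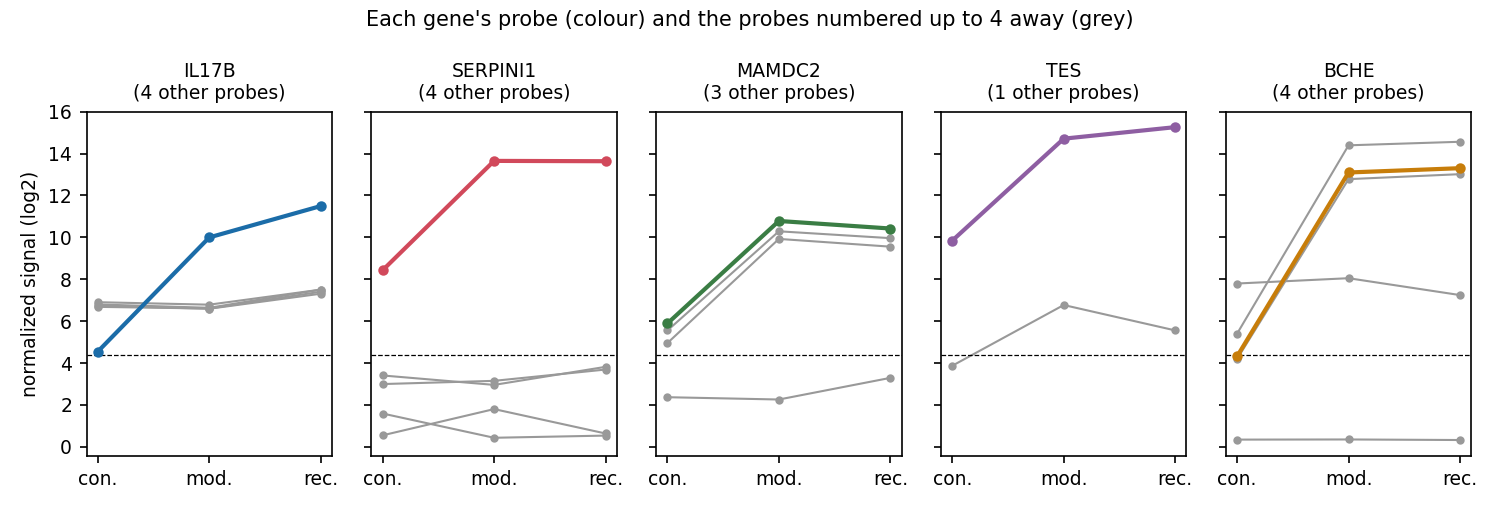
Normalized log2 signal (vertical axis) in the control, model and recovery aorta (horizontal axis) for the probe of each of the 5 genes (thick coloured line) and for the probes whose numbers lie up to 4 away (grey lines), with the floor as a dashed line. Some grey lines run along the coloured one for BCHE and MAMDC2, and all lie flat or under the floor for IL17B and SERPINI1.

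The gene patterns most like the 5 were sought among 492 other genes tied to a probe above the floor on 1 array or more, by the Euclidean distance over the log2 ratios of model and recovery to control, which rest on 3 arrays. Nearest to MAMDC2 was LMOD1, an actin nucleator of smooth muscle, at 0.12, with 3.88 (control, under the floor), 9.23 (model) and 8.79 (recovery). HSPB6, a small heat shock protein of muscle, followed at 0.21 and PRUNE2 at 0.37. For SERPINI1 and for TES the nearest gene was MYOM1, which encodes myomesin of the sarcomeric M-band, at 0.20 and 0.37, and the second was the sarcomeric formin FHOD3, at 0.58 and 0.43. The third gene was HSPB6 for SERPINI1, at 0.69, and MYH11, the smooth muscle myosin heavy chain, for TES, at 0.64. SERPINI1 and TES lay 0.41 apart from each other. The control values of LMOD1, PRUNE2, MYOM1 and FHOD3 were under the floor, so their ratios are bounds and their distances depend on it.

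IL17B and BCHE had no named gene as close. Nearest to IL17B by name were SPP1, the matrix phosphoprotein osteopontin, at 0.80, the β-tropomyosin TPM2 at 1.04 and the α-sarcoglycan SGCA at 1.10. SPP1 gave 5.94 (control), 10.59 (model) and 12.83 (recovery), so that it too was higher in recovery than in model, by 2.24 on the log2 scale. The unnamed probe A_04_P006066 lay closer to IL17B, at 0.22, with 7.11 (control), 12.47 (model) and 13.86 (recovery). For BCHE the nearest genes were SGCA at 4.46, TPM2 at 4.54 and SPP1 at 4.55. Its 2 nearest probes of any kind were the pair with adjacent numbers described above, at 0.36 and 0.43, followed by 3 unnamed probes with consecutive numbers (A_04_P009891 to A_04_P009893) at 0.66 to 1.72.

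The 5 genes were set beside the genes of the contractile apparatus. Of 24 listed contractile genes 11 were tied to a probe, and all 11 were at least 2-fold higher than control in model and in recovery, with median log2 ratios of 3.58 (model) and 4.00 (recovery) against medians of 0.02 and 0.04 over all probes, of which 8.06% were higher in both. Their log2 ratios ran from 2.29 for PGM5, a phosphoglucomutase-like protein of adherens junctions, to 5.33 for TPM2 in model. The study's list from which genes were tied to probes holds only genes it called changed on these arrays, so such a count is no share of all contractile genes, and the same holds for the other lists. The ratio of LMOD1 is a lower bound and sets no order, which leaves 10 genes with a measured ratio. IL17B and BCHE exceeded all 10 in both arrays. SERPINI1 and TES exceeded 9 of them in model and 8 in recovery, and MAMDC2 exceeded 9 in model and 6 in recovery. Since the 5 genes were chosen for large values of these ratios, their place among the contractile genes follows in part from that choice. Relative to the contractile median, the log2 ratio of model over control was 5.14 for BCHE, 1.87 for IL17B, 1.64 for SERPINI1, 1.31 for MAMDC2 and 1.28 for TES. In recovery over control it was 4.92 for BCHE, 2.94 for IL17B, 1.41 for TES, 1.20 for SERPINI1 and 0.53 for MAMDC2. Whether the amount of smooth muscle in the samples had a part in these differences was not tested.

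Among genes of plasminogen activation and its inhibitors, the system of SERPINI1, 2 more of 16 listed were tied to a probe. SERPINE2, or protease nexin-1, a serpin that inhibits thrombin and plasminogen activators, gave 4.96 (control), 9.25 (model) and 8.79 (recovery). Its ratio to control was 19.6-fold for model and 14.2-fold for recovery, and 8.06% of all probes were at least 2-fold higher in both. The other serpin of the list tied to a probe is SERPINI1 itself, which was chosen for its ratios. F12, the coagulation factor XII gene, had 4.69 in control and was below the floor in model and recovery, too near it for a 2-fold bound. The protease genes PLAT and PLAU, targets of these inhibitors, could not be tied to a probe by the matching rule.

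Of 33 listed genes of focal adhesions and LIM domain proteins, the setting of TES, 4 besides TES were tied to a probe, and all 4 were at least 2-fold higher in model and in recovery than in control, against 8.06% of all probes. Only 12 of the 33 stand in the study's list of changed genes. ACTN1, the cross-linker α-actinin 1, had log2 signals of 9.94, 12.76 and 13.63 in control, model and recovery. CSRP1, a LIM domain protein of smooth muscle, had 8.83, 11.77 and 12.45. TGFB1I1, a paxillin relative also known as Hic-5, had 6.81, 9.67 and 9.53, and PDLIM3, which binds α-actinin, gave 7.73 (model) and 6.88 (recovery) with its control value under the floor. The median over these 4 was 2.90 for model over control. For recovery over control it was at least 3.17, a bound because the floored ratio of PDLIM3 was the lowest. The ratios of TES were above those of ACTN1, CSRP1 and TGFB1I1. The ratios of PDLIM3 are lower bounds and were not ordered against TES.

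Of 31 listed proteoglycans and MAM domain proteins, 2 besides MAMDC2 were tied to a probe. Both are small leucine-rich proteoglycans that bind collagen. FMOD, fibromodulin, gave 6.76 (model) and 7.81 (recovery) with its control value under the floor. PRELP had 5.25, 8.53 and 7.60 in control, model and recovery. Both were at least 2-fold higher than control in both groups, against 8.06% of all probes. Only 11 of the 31 stand in the study's list of changed genes. The log2 ratios of PRELP, 3.28 (model) and 2.34 (recovery), were under those of MAMDC2, and those of FMOD are lower bounds of 2.38 and 3.43.

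In the acetylcholine list of 20 genes, the nicotinic receptor subunit genes CHRNA3 and CHRNA5 were tied to a probe beside BCHE, and both were below the floor on all 3 arrays, at 3.51 and 3.17 in model. Of 13 listed interleukin-17 cytokines, receptors and adaptors only IL17B itself was tied to a probe. The receptor genes IL17RA and IL17RB stand in the study's list of changed genes, but several probes could carry their ratios, so no value is given for them.

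**Figure D4:**
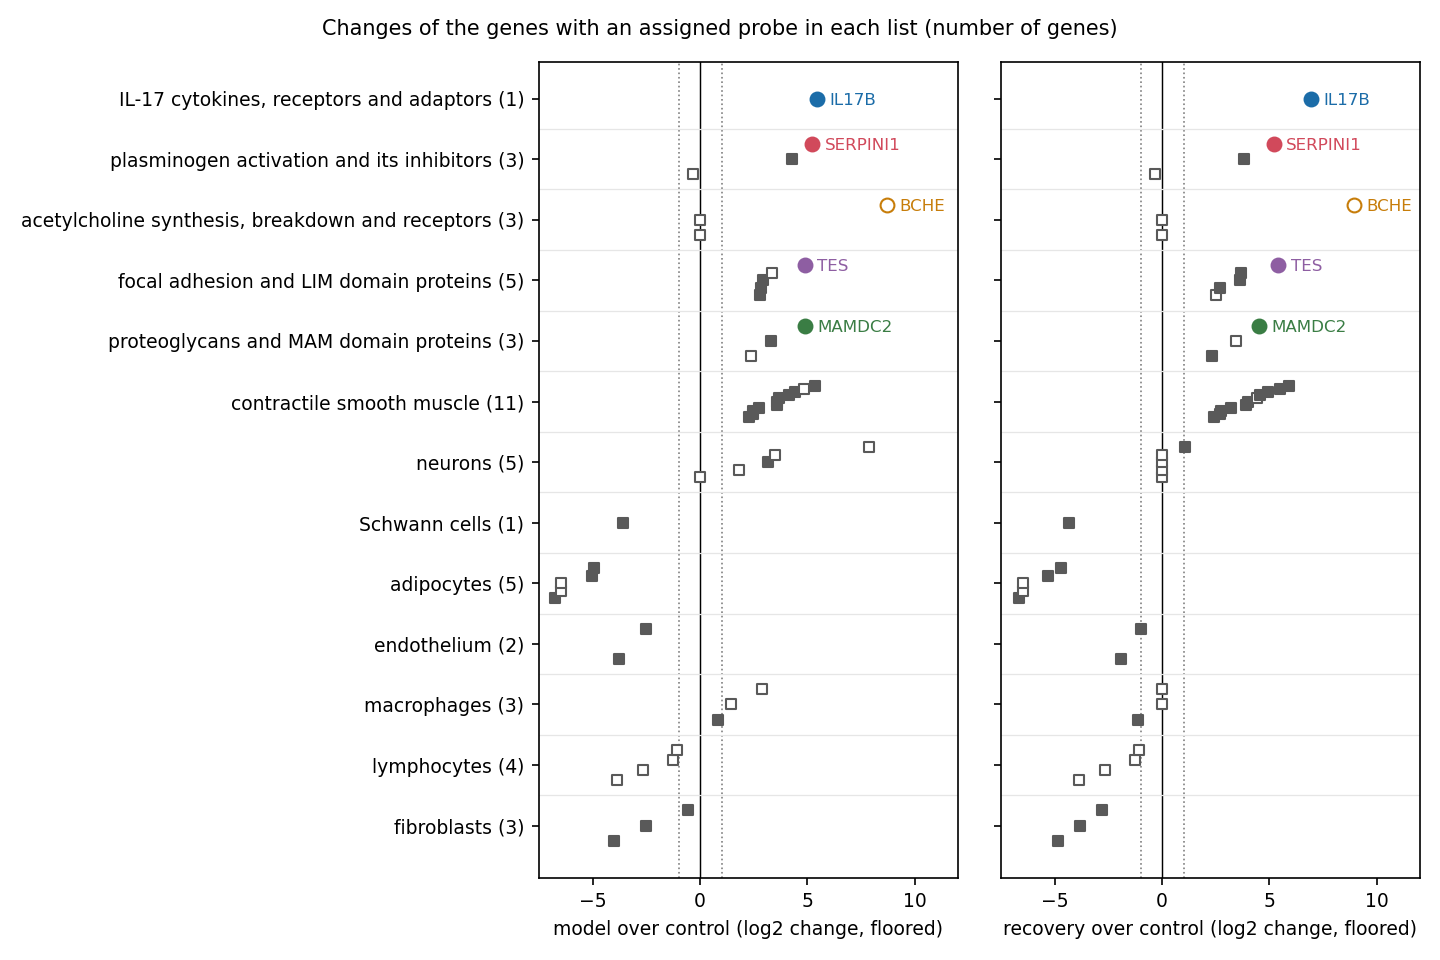
Log2 change over control after flooring (horizontal axes) in model (left) and recovery (right) for every gene tied to a probe in each list (rows, with the number of genes). Coloured points are the 5 genes, grey squares the other list members, and dotted lines mark 2-fold. Open symbols have a value under the floor in at least 1 of the compared arrays and show a bound, or 0 where both are under it. All 11 contractile genes lie past the right line in both panels, and of the 5 neuronal genes 4 do so in model and 1 in recovery.

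Genes that mark other cells of the wall or its surroundings did not share one pattern. SERPINI1 and BCHE are also known from neurons and glia. Of 16 listed neuronal genes 5 were tied to a probe, and 4 were at least 2-fold higher in model than in control (11.9% of all probes) and at least 2-fold lower in recovery than in model (8.16%). In recovery only TH, tyrosine hydroxylase, was at least 2-fold higher than in control. The log2 of their summed signal was 5.49 (control), 12.41 (model) and 6.27 (recovery), carried mostly by NPY in model, at 12.25, and by TH in recovery, at 5.77. NPY, SYT1, GAP43 and SCG2 were below the floor in recovery. The 1 Schwann cell gene tied to a probe, S100B, was lower in model and recovery than in control, at -3.58 and -4.32 on the log2 scale.

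Over all probes 13.1% were at least 2-fold lower in model and 16% in recovery than in control, and the genes tied to a probe come from the study's list of genes changed on these arrays. All 5 adipocyte genes tied to a probe, of 15 listed, were at least 2-fold lower in both arrays, and their sum on the log2 scale was 17.24 (control), 12.26 (model) and 11.92 (recovery). Both of the endothelial genes tied to a probe were lower in model, with sums of 10.44, 7.24 and 9.18 in control, model and recovery. All 4 lymphocyte genes were lower in both arrays, with sums of 9.03, 4.86 and 4.46. The 3 fibroblast genes DPT, THY1 and COL1A1 were at least 2-fold lower in recovery, and 2 of them in model, with sums of 14.17, 13.15 and 11.01. Of 3 macrophage genes 2 were at least 2-fold higher in model (11.9% of all probes) and none in recovery (16%). These 2, MMP12 and CX3CR1, had control values under the floor. The sums were 8.66, 9.82 and 7.54, carried mostly by TLR2, which was not 2-fold higher in model. The part of these cell types in the ratios of the 5 genes was not tested.

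The 5 genes do not form one block of the genome, but a pair of them are close. In the RefSeq annotation of the rabbit assembly mOryCun1.1, SERPINI1 and BCHE lie on the same chromosome with 13 annotated genes between them, of which 4 code for proteins (PDCD10, WDR49, SERPINI2 and ZBBX). None of these 4 was tied to a probe, although PDCD10 stands in the study's list of changed genes. Close to IL17B lie MIR143 and MIR145, microRNA genes known for high expression in smooth muscle, which were not analysed here. Among the annotated genes around IL17B, AFAP1L1, an actin filament-associated protein gene, gave 6.35 (control), 3.35 (model) and 3.08 (recovery), a log2 difference to control of at most -1.97 in both after flooring. PPARGC1B, a transcriptional coactivator gene, had log2 ratios to control of -2.14 (model) and -3.49 (recovery). The directions of AFAP1L1 and PPARGC1B were thus opposite to that of IL17B. TES has the caveolin genes CAV2 and CAV1 close by, neither tied to a probe, and its neighbours MET and WNT2, a receptor tyrosine kinase gene and a Wnt ligand gene, were under the floor on all arrays. Further neighbours in the study's list of changed genes could not be tied to a probe, so no direction is given for them. Besides PDCD10 these were GOLIM4 near SERPINI1, ABLIM3, CSNK1A1 and ARHGEF37 near IL17B, and CAV2, MDFIC and CAPZA2 near TES.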

How the data were processed

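RNA of the abdominal aorta was hybridized to single-colour (Cy3) Agilent rabbit arrays, 1 for each group. The deposited values are log2 signals that the authors read with Agilent Feature Extraction (10.7, per the submitters' processing notes) and quantile-normalized in GeneSpring. How background and repeated spots were handled is not given in the sources used here. Precision is limited by the number of arrays.

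Python 3.11.15, numpy 2.4.6 and pandas 2.3.3 were used. Ratios are differences of log2 values after flooring, and probes were counted at 2-fold. The value table names no genes. A gene of the study's list of 3715 changed genes was tied to a probe where 1 probe alone had both log2 ratios within 0.006 and fewer than 0.05 chance matches were expected from the probes within 0.1. This tied 613 of the 975 genes in sparse regions, with 11.6 false ones expected. The study's fold changes served for this matching alone. Counting was tested on simulated arrays. Matching was tested on the ratios of known probes of these arrays with small noise added, so genes without a probe on the array were not part of that test.

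The 5 genes, the 5 pathway and 8 cell type lists, the rule for named genes (the 5 genes, the 3 nearest patterns of each, and list members) and the tolerance of the matching were chosen with earlier results of these data known. Genes neighbouring the 5 were named after the values had been seen. Of these neighbours, 1 is not reported here. Alternatives changed the floor, the scaling, the fold threshold and the filter. No sequences are shown, and promoters and proteins were not analysed here.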

Additional observations from a re-analysis of the deposited data

How the results depend on the processing

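The ratios of the 5 genes to control kept their direction under every alternative floor and scaling. They ran from 4.53 to 8.92 on the log2 scale as reported, up to 9.18 over the alternatives (BCHE in model, scaled to the spiked-in controls), and from 3.41 to 6.72 with the floor at the 60th percentile of 6.58, where IL17B, MAMDC2 and BCHE have floored control values and 6 ratios were lower by over 1.5-fold. After subtraction of the contractile median they ran from 0.53 to 5.14. Between recovery and model, the sign of BCHE turned to -0.32 when scaled to the spiked-in controls, and the cause was not tested. No paired analysis was possible because each group has 1 array, and no array could be left out. The mean over all probes of a gene was not run, since no table of probes by gene was used. Signals near the floor limit the ratios of IL17B and BCHE.

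The probe counts moved more. With no floor, 5814 probes were higher and 6162 lower in model than in control, 7914 higher and 7405 lower in recovery than in control, 4403 higher and 4701 lower in recovery than in model, and 3870 higher in both model and recovery. With the floor at the 20th percentile, 3307 were higher and 3774 lower in recovery than in model. At the 60th percentile the counts in the same order as with no floor were 2115, 2413, 3040, 2995, 1254, 1270 and 1485. At 1.5-fold they were 6616, 6156, 7886, 7148, 4712, 4958 and 4552, and at 4-fold 1130, 1438, 1532, 1810, 411, 441 and 753. Scaled to the spiked-in controls, 7062 were higher and 2467 lower in model than in control, and 875 higher and 5990 lower in recovery than in model. Fewer or more probes pass a threshold or floor by construction. The cause of the other shifts was not tested.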

Other observations

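Besides the 5 genes, 19 genes tied to a probe were at least 16-fold above control in both model and recovery. Of these, 4 were in the contractile list, and the other 15 were not picked by any rule but this fold. SPP1, SGCA, MYOM1, FHOD3, HSPB6 and PRUNE2 are named among the nearest genes. LOC100009168, a serum amyloid A gene by its RefSeq synonyms, gave 6.25 (control), 10.44 (model) and 14.04 (recovery), and its log2 ratio of 3.60 for recovery over model was the highest of the 24 genes. PBV1SPCR2 gave 8.80 (model) and 8.68 (recovery) and TUSC3 9.03 (model) and 8.42 (recovery), both with control values under the floor. COL8A1, a short-chain collagen of vessels, gave log2 signals of 12.83 (control), 16.98 (model) and 16.84 (recovery). DTNA, a dystrobrevin of the dystrophin complex, gave 8.63 (model) and 9.55 (recovery) with its control value under the floor. FIBIN had 10.19 in model and 9.02 in recovery and was also below the floor in control. MRVI1, a substrate of cyclic GMP-dependent kinase in smooth muscle, had 4.97, 9.19 and 8.98 in control, model and recovery. MCP2, so named in the study's list, had 5.17, 11.28 and 9.19, and CKM, the muscle creatine kinase, had 4.90, 10.97 and 9.08. For MCP2 and CKM the log2 ratio of recovery over model was -2.09 and -1.90, against -0.36 to 1.497 for the 5 genes.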
